A study of Mus musculus with 11 samples.

Results

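The Ms4a family encodes small proteins that cross the cell membrane and sit beside receptors on leukocytes. 8 of its genes were followed across kidneys of lupus-prone and control mice. They were taken by symbol from a list of Ms4a4a, Ms4a4b, Ms4a4c, Ms4a6b, Ms4a6c, Ms4a6d, Ms4a7 and Ms4a8a, and all 8 are among the 25677 genes listed in the count file. The list was selected on the fold changes between Lpr and Ctr kidneys, where Ms4a6c is among the strongest, so the values of that comparison are a description here and carry no test.

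The best known relatives are Ms4a1, which encodes the B cell antigen CD20, and Ms4a2, which encodes a chain of the high-affinity IgE receptor. Ms4a4b is a gene of T cells, and its protein associates with GITR (Tnfrsf18). The products of Ms4a4a and Ms4a7 are found on macrophages, and human MS4A4A associates with the beta-glucan receptor Dectin-1 (Clec7a). Ms4a6c and Ms4a6d are genes of monocytes and macrophages, Ms4a6b is used by T cells as well as by myeloid cells, and Ms4a8a was described in alternatively activated macrophages.

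Whole kidneys were sequenced, 1 library per mouse, in 3 groups. Ctr was 3 C57BL/6J mice (C57B6 in the labels), Lpr was 4 untreated MRL/lpr mice, and DNase was 4 MRL/lpr mice that received DNase I. The mice were female and 21 weeks old. MRL/lpr mice carry the lpr mutation of Fas and develop a nephritis like that of lupus, and DNase I, an enzyme that cuts extracellular DNA, was injected daily into the peritoneum from the onset of skin disease until death. The study asked what DNase I does to the kidney in this model. All Lpr and DNase mice share the MRL/lpr genotype, and no control of that strain without lpr was among the samples, so strain and disease cannot be told apart in a difference from Ctr.

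Libraries held 33469858 to 38460873 counts. Lpr replicate 3 stood apart by a loss of counts from long genes (-0.393 log2 units each time the length doubles), while the other 10 kidneys lay between -0.0432 and 0.0775. The tests between groups, the relations and the genes most like a member were therefore repeated without this kidney, while levels and sums include it. The RNA is from bulk tissue, in which fewer cells of a type and less RNA per cell cannot be told apart.

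The Ms4a genes lie together on mouse chromosome 19 in GRCm38. GENCODE holds 19 of them over 678.6 kb, and 14 are in the count file. Of the 8 members, 7 lie within 283.8 kb, in the order Ms4a7 (chr19:11321039-11336146), Ms4a4a (chr19:11375523-11392790), Ms4a4c (chr19:11404770-11427246), Ms4a4b (chr19:11443553-11467055), Ms4a6c (chr19:11469366-11482192), Ms4a6b (chr19:11516512-11531256) and Ms4a6d (chr19:11586604-11604849). Ms4a7 and Ms4a6d are on the minus strand and the other 5 of these on the plus strand. Ms4a8a (chr19:11067471-11081102, minus strand) lies 239.9 kb before the nearest other member.

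Some of these genes are close copies. The coding sequences of Ms4a4b and Ms4a4c were identical at 91.7% of 678 aligned bases, those of Ms4a6b and Ms4a6c at 85.4% of 642, and those of Ms4a6c and Ms4a6d at 79.0% of 638. Ms4a4d, a relative that lies between Ms4a6b and Ms4a6d and is no member, matched Ms4a4c at 87.9%. Copies this close can share reads, so it was counted how many stretches of 100 bases, the read length, of a member's transcripts also occur in another gene's. Ms4a4b and Ms4a4c had 28 such stretches in common, 0.602% of those of Ms4a4b and 1.72% of those of Ms4a4c. Ms4a4b had another 13 in common with Ms4a2. Ms4a6c had 893 (51.3%) in common with BE692007, a transcript of the opposite strand, and 10 with Prdm11. The members Ms4a4a, Ms4a6b, Ms4a6d, Ms4a7 and Ms4a8a had none.

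The likeness of the pairs extends to the stretches before their transcription starts in RefSeq. For Ms4a6b and Ms4a4c these stretches lie inside the GENCODE spans given above, downstream of the GENCODE start. The 250 bases before the start of transcription are printed for both pairs from the RefSeq promoter table (GRCm38.p6), each on the plus strand and 5′ to 3′. Capitals mark runs of at least 12 bases that the pair has in common in the alignment. Ms4a6b (chr19:11518309-11518558) and Ms4a6c (chr19:11469118-11469367) were identical at 86.0% of 172 aligned bases, with a longest run of 48:
Ms4a6b: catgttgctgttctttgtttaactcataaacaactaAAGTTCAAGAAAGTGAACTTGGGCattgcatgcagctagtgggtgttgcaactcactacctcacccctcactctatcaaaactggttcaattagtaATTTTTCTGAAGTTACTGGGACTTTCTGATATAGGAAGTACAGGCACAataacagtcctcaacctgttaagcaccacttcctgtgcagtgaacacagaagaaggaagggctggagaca
Ms4a6c: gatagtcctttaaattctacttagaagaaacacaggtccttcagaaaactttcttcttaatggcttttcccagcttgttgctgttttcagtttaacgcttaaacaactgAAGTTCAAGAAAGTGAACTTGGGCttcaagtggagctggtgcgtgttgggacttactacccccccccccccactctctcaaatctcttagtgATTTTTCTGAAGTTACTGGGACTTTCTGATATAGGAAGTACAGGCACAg

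Ms4a4b (chr19:11443308-11443557) and Ms4a4c (chr19:11407411-11407660) were identical at 85.9% of 184 aligned bases, and their longest run was 20:
Ms4a4b: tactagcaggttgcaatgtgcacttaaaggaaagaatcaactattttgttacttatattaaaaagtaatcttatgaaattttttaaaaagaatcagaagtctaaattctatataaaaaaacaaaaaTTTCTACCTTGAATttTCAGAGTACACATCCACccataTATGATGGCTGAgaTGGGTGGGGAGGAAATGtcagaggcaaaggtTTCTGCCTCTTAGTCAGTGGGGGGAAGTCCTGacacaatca
Ms4a4c: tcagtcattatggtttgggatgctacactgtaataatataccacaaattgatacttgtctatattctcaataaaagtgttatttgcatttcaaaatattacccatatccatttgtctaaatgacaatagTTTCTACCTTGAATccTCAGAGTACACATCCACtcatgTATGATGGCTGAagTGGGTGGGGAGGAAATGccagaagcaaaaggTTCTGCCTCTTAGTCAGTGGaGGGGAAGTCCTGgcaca

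Both promoters of the Ms4a4 pair hold GAGGAA, the core of sites for the myeloid and B cell factor PU.1. It lies 64 to 59 bases before the RefSeq start in Ms4a4b and 61 to 56 in Ms4a4c. The motif was searched on both strands, and 23.3% of all 32851 promoters of the table hold it. Of the 7 members with a promoter in the table, these were the only 2 that held it. The interferon-stimulated response element and TTCNNNGAA, a STAT motif, were found in 0 of the 7, against 2.98% and 7.02% of all promoters.

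Levels between genes were compared per length, as FPKM. In Lpr kidneys Ms4a7 (17.5 ± 9.43 FPKM, SD, n = 4), Ms4a6d (17.4 ± 4.61), Ms4a6c (15.2 ± 3.73), Ms4a4b (13.5 ± 6.96) and Ms4a6b (13.2 ± 5.09) formed an upper tier in which the ranges of neighbours overlapped. Ms4a4a (1.61 ± 0.442 FPKM) and Ms4a4c (1.40 ± 0.152) followed, with overlapping ranges between them and none with the upper tier. Ms4a8a was lowest at 0.360 ± 0.324 FPKM. DNase kidneys had the same 3 tiers, from Ms4a7 (12.7 ± 2.87 FPKM, n = 4) to Ms4a8a (0.138 ± 0.0801). In Ctr kidneys the upper 5 lay between 0.636 FPKM (Ms4a6d) and 1.16 FPKM (Ms4a7), and the lower 3 at 0.166 FPKM (Ms4a4c), 0.0686 FPKM (Ms4a4a) and 0.0437 FPKM (Ms4a8a).

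**Figure D1:**
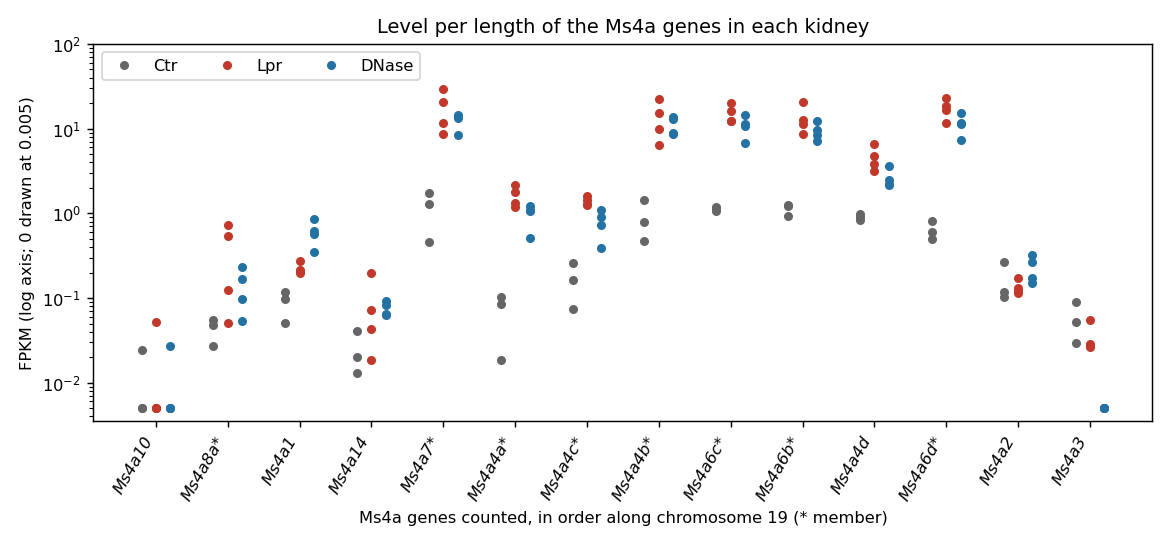
FPKM (log axis) of the 14 Ms4a genes in the count file in their order along chromosome 19, with 1 point per kidney coloured by group and members starred. Ms4a7, Ms4a4b, Ms4a6c, Ms4a6b and Ms4a6d reach the highest levels in Lpr and DNase kidneys, and Ms4a10, Ms4a2 and Ms4a3 stay under 1 FPKM in every kidney.

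The values of single kidneys are given as CPM, counts scaled to the library total times its TMM factor, which compares 1 gene between kidneys. Ms4a6c, the gene for which the list was made, had 2.59, 2.74 and 2.37 CPM in the 3 Ctr kidneys. Its 4 Lpr kidneys had 35.8, 42.6, 28.9 and 25.8 CPM and its 4 DNase kidneys 14.4, 24.0, 30.3 and 23.5 CPM. Every MRL/lpr kidney was above every Ctr kidney, and the Lpr and DNase ranges overlapped. Its close copy Ms4a6b had 2.13, 1.69 and 2.16 CPM in Ctr, 19.3, 33.4, 15.4 and 20.7 CPM in Lpr, and 11.8, 13.7, 19.8 and 16.3 CPM in DNase. Ms4a6d had 1.13, 0.733 and 0.839 CPM in Ctr, 26.0, 30.3, 24.1 and 15.6 CPM in Lpr, and 9.79, 15.4, 20.5 and 15.6 CPM in DNase. For both genes the Ctr kidneys were again below all others, and the Lpr and DNase ranges overlapped.

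Among the Ms4a4 genes, Ms4a4b had 1.86, 0.638 and 1.02 CPM in Ctr, 8.28, 27.2, 13.1 and 18.8 CPM in Lpr, and 10.5, 10.9, 16.6 and 16.3 CPM in DNase. The Lpr kidneys spread widely here, and the lowest and the highest of all 8 MRL/lpr values were both from Lpr. Ms4a4c had 0.458, 0.765 and 0.210 CPM in Ctr, 4.04, 3.44, 4.67 and 3.37 CPM in Lpr, and 1.03, 1.90, 2.93 and 2.45 CPM in DNase. It was the one member whose 4 DNase kidneys all lay below the 4 Lpr kidneys. Ms4a4a had 0.0270, 0.128 and 0.150 CPM in Ctr, from 1 to 5 counts, then 1.89, 2.97, 2.69 and 1.64 CPM in Lpr and 0.697, 1.68, 1.46 and 1.55 CPM in DNase. Its Lpr and DNase ranges overlapped by a narrow margin, since DNase replicate 2 exceeded Lpr replicate 4.

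Ms4a7 had 3.05, 0.83 and 2.28 CPM in Ctr, 14.9, 48.8, 37.7 and 19.2 CPM in Lpr, and 14.0, 22.0, 24.3 and 24.1 CPM in DNase. As for Ms4a4b, the Lpr kidneys spread more than the DNase kidneys. Ms4a8a was at the edge of detection, with 2, 2 and 1 counts in Ctr, 28, 5, 2 and 20 counts in Lpr, and 2, 9, 4 and 7 counts in DNase. Against a floor of 3 counts per Ctr library its mean was at least 4.36-fold higher in Lpr and at least 1.63-fold higher in DNase. These means rest on few kidneys, as Lpr replicate 3 and DNase replicate 1 had 2 counts each.

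**Figure D2:**
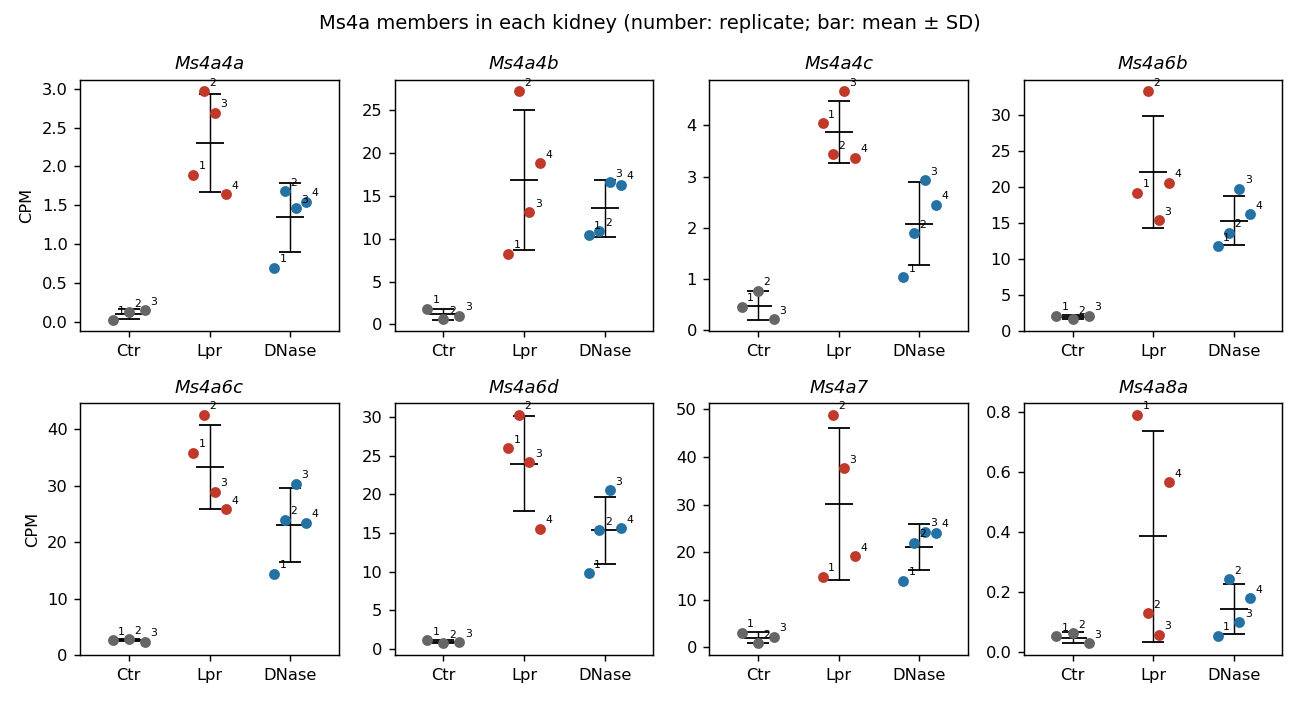
CPM (linear axis) of each of the 8 members in every kidney by group, numbered by replicate, with bars for the mean ± SD (n = 3, 4 and 4). The Ctr kidneys sit below all Lpr and DNase kidneys for each member but Ms4a8a, and DNase replicate 1 is the lowest DNase kidney in each plot.

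The same kidneys stood at the ends of the range for many members. Lpr replicate 2 had the highest Lpr value for 6 of 8 members and DNase replicate 3 the highest DNase value for 6 of 8. DNase replicate 1 had the lowest DNase value for 8 of 8. Summed over the members, Ctr kidneys had 7.59 to 11.3 CPM, Lpr kidneys 105.6 to 188.8 CPM and DNase kidneys 62.3 to 116 CPM.

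Differences between groups were tested across all genes with edgeR's quasi-likelihood test, and a gene was called at an adjusted p under 0.05 with an absolute log2 fold change above 2. Of the members, 7 had enough counts for the test and Ms4a8a did not. A gene at near 0 in Ctr passes this filter only through the kidneys in which it is high. Between Lpr and Ctr, the comparison behind the choice of the list, all 7 were called higher and their groups did not overlap. Of all 16074 genes tested there, 4.65% were called higher and 14.2% had no overlap and higher values in Lpr. The log2 fold changes ran from 3.03 (standard error 0.444) for Ms4a4c to 4.74 (0.324) for Ms4a6d, with a median of 3.85, beside a median of 0.0272 over all genes tested. Ms4a6c was 13.1-fold higher in Lpr (log2 fold change 3.71, standard error 0.243), Ms4a6d 26.6-fold and Ms4a4a 22.5-fold. Without Lpr replicate 3 the call of each of the 7 held.

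DNase kidneys were also far above Ctr. This comparison has the Ctr kidneys in common with the one that chose the list. Its calls, folds and p-values for the members are thus not independent of that choice and are a description. All 7 members tested were called higher in DNase, where 4.56% of 16100 genes were, and 7 had no overlap, as did 18.2% of all genes in that direction. The median log2 fold change was 3.35, beside 0.00196 over all genes tested. Ms4a6d rose most, 16.9-fold (log2 fold change 4.08, standard error 0.298, adjusted p = 2.11e-05 from edgeR). Ms4a6c rose 8.99-fold (3.17, standard error 0.254, adjusted p = 3.51e-05) and Ms4a6b 7.70-fold (2.95, standard error 0.217, adjusted p = 2.18e-05). Ms4a4b rose 11.4-fold, Ms4a4a 13.2-fold and Ms4a7 10.2-fold, with adjusted p-values from edgeR of 0.000132, 0.00123 and 0.000264. The fold of Ms4a4a is against 1, 4 and 5 counts in Ctr and is imprecise (95% interval of its log2 fold change 2.47 to 4.97), and the gene passed the filter only through the DNase kidneys. Ms4a4c rose least, 4.36-fold (2.12, standard error 0.490, adjusted p = 0.0131 from edgeR). It had 7 to 24 counts in Ctr and would not have passed the filter without the DNase kidneys. Its call did not hold without Ctr replicate 1 (adjusted p = 0.0548), and without Ctr replicate 3 or DNase replicate 3 its log2 fold change was 1.76 or 1.91, under the threshold of 2.

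Between DNase and Lpr, the comparison that asks what the treatment does, no member was called, and neither was any of the 15832 genes tested (0%). DESeq2 called 4 genes and no member. The Lpr kidneys of this comparison are those whose high values chose the list, so the counts of members are not independent of that choice and are a description. All 7 members tested had a lower fitted level in DNase, with a median log2 fold change of -0.535, where 52.9% of all genes were lower and the median was -0.0202. Ms4a4c had the largest difference, -0.91 (95% interval -1.62 to -0.19, adjusted p = 0.82 from edgeR), and was the only one without overlap, as 1.68% of all genes were in that direction. Ms4a4a (-0.78, interval -1.53 to -0.019) and Ms4a6d (-0.65, interval -1.23 to -0.074) also had an unadjusted p under 0.05. That is 3 of 7 members, where 3.43% of all genes had such a p in the same direction, and nothing is read from it given the choice of the list. Both had an adjusted p of 0.854 from edgeR.

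For Ms4a6c the difference was -0.53 (interval -1.07 to 0.0014, adjusted p = 0.854 from edgeR) and for Ms4a6b -0.53 (interval -1.10 to 0.036, adjusted p = 0.854). Ms4a7 (-0.52, interval -1.34 to 0.29) and Ms4a4b (-0.32, interval -1.08 to 0.44) had the widest intervals on the side above 0. A log2 fold change under -2, the size a call requires, lies outside the interval of every member tested. Ms4a8a, fitted with no filter on low counts, had a log2 fold change of -1.40 (interval -3.05 to 0.253, adjusted p = 0.742 from edgeR).

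Single kidneys weighed on these differences. Without Lpr replicate 2, DNase replicate 1 or DNase replicate 4, 1 member instead of 3 had an unadjusted p under 0.05, and without Lpr replicate 3, 4 did. Without the latter kidney the differences ran from -0.40 for Ms4a7 to -0.80 for Ms4a4c. The difference of Ms4a4b was 0.00035 without Lpr replicate 2.

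**Figure D3:**
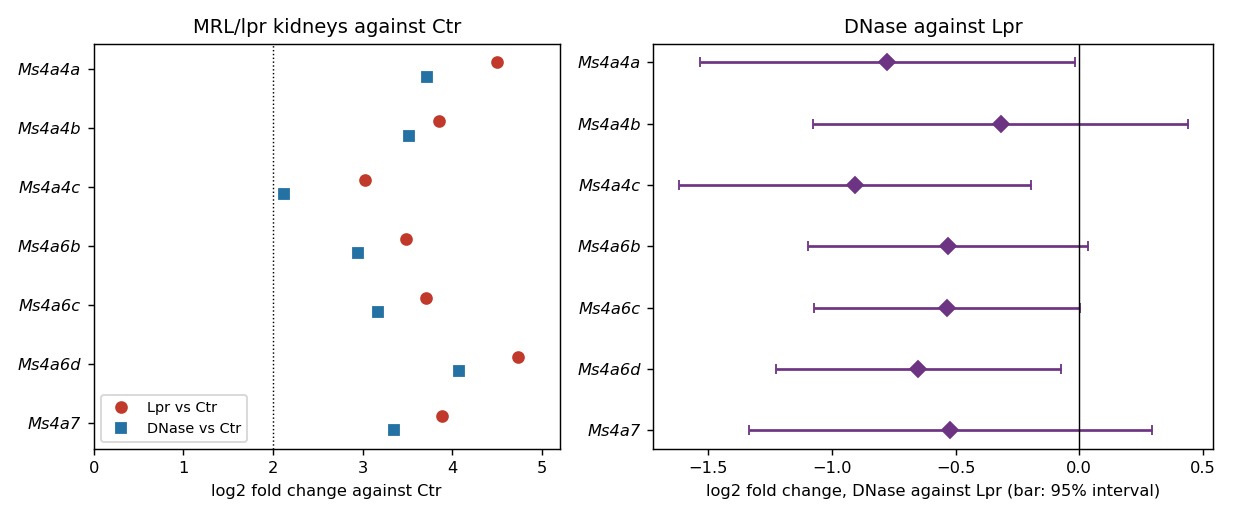
Log2 fold changes of the 7 members tested: against Ctr on the left (circles Lpr, squares DNase, dotted line the threshold of 2) and DNase against Lpr on the right with 95% intervals. Every member lies above 2 on the left and below 0 on the right, where the intervals of Ms4a4a, Ms4a4c and Ms4a6d stay below 0.

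The relatives of the members were read from a list of 13 genes, of which 8 are in the count file. Ms4a4d had 1.43 ± 0.0639 CPM (SD, n = 3) in Ctr, 6.89 ± 1.96 (n = 4) in Lpr and 3.88 ± 0.991 (n = 4) in DNase. It was called higher in Lpr than Ctr, the only 1 of 5 relatives tested there, where 4.65% of all genes were. Between DNase and Lpr its log2 fold change was -0.83 (interval -1.42 to -0.25, adjusted p = 0.82 from edgeR). Ms4a1, the gene of CD20, took another course, with 0.594 to 0.781 CPM in Lpr and 1.00 to 2.50 CPM in DNase and no overlap. Its log2 fold change between DNase and Lpr was 1.38 (interval 0.65 to 2.12, adjusted p = 0.82 from edgeR). Its unadjusted p was under 0.05, as for 2.17% of all genes in that direction, and 2.08% of all genes were higher in DNase with no overlap. Against Ctr it rose in DNase (log2 fold change 2.66, adjusted p = 0.00187 from edgeR). It was the only 1 of 6 relatives called higher there, where 4.56% of all genes were. Ms4a1 had 5 to 12 counts in Ctr and would not have passed the filter without the DNase kidneys.

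The other relatives were low or did not pass the test. Ms4a2 had 10 to 33 counts per kidney and Ms4a14 2 to 33. Ms4a10 had 0 to 2 counts. Ms4a3 had 1 to 3 counts in each Ctr and Lpr kidney and 0 in every DNase kidney, so both groups were at or under the floor. Tmem176a and Tmem176b, distant relatives that the kidney expresses strongly, had 358 ± 45.9 and 612 ± 87.3 CPM (SD, n = 3) in Ctr. In Lpr they had 619 ± 207 and 1102 ± 512 CPM (n = 4), and in DNase 443 ± 49.7 and 706 ± 55.4 CPM (n = 4). Between Lpr and Ctr their log2 fold changes were 0.81 and 0.86 (adjusted p = 0.119 and 0.188 from edgeR). Between DNase and Ctr they were 0.31 and 0.21 (adjusted p = 0.104 and 0.249 from edgeR). Between DNase and Lpr they were -0.49 (interval -1.02 to 0.035) and -0.65 (interval -1.31 to 0.0016), each with an adjusted p of 0.854 from edgeR.

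The genes of proteins that associate with members were high in the same groups. Of 5 partners listed, 4 were tested, and all 4 were called higher in Lpr and in DNase than in Ctr. Of all genes tested, 4.65% and 4.56% were. The medians of the 4 were 3.28 and 3.10 on the log2 scale. Trem2 and Tnfrsf18 had 4 and 6 counts in Ctr replicate 2 and would not have passed the filter without the MRL/lpr kidneys. Clec7a, the gene of Dectin-1, had 3.12 ± 0.876 CPM (SD, n = 3) in Ctr, 37.2 ± 24.8 (n = 4) in Lpr and 32.3 ± 9.64 (n = 4) in DNase. Trem2, a lipid receptor of macrophages that MS4A proteins regulate, had 0.481 ± 0.354, 11.2 ± 5.89 and 9.41 ± 3.66 CPM, and Tyrobp, its signalling adaptor, 9.51 ± 1.57, 65.3 ± 23.2 and 48.5 ± 15.4 CPM. Tnfrsf18, the gene of GITR, had 0.368 ± 0.162, 2.87 ± 1.39 and 2.67 ± 0.650 CPM. Between DNase and Lpr 0 of the 4 were called, with log2 fold changes from -0.44 (Tyrobp) to -0.11 (Tnfrsf18). Vsig4, a complement receptor of resident macrophages and a partner of Ms4a6d, had 0 to 26 counts and was not tested.

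The cells for which the members are named were checked by their markers. T cell markers (9 of 11 in the count file, without Trbc1 and Trbc2) summed to 5.87 to 8.63 CPM in Ctr, 84.4 to 182 CPM in Lpr and 84.2 to 137 CPM in DNase. Markers of mononuclear phagocytes (12 of 12) summed to 196 to 270, 1210 to 2380 and 945 to 1780 CPM. Both lists were thus present and moved with the members. The sums of other leukocyte lists were higher in the same kidneys too. Plasma cell markers summed to 30.2 to 49.1 CPM in Ctr, 174 to 748 in Lpr and 310 to 1050 in DNase. Neutrophil markers summed to 1.74 to 5.07, 15.4 to 37.8 and 13.4 to 24.7 CPM. NK cell markers summed to 0.701 to 1.51, 5.61 to 15.9 and 5.54 to 7.44 CPM, and those of dendritic cells to 12.8 to 14.9, 21.5 to 60.3 and 37.2 to 64.3 CPM. From Ctr to Lpr the NK cell sum rose mostly through Eomes (mean 0.309 to 5.89 CPM) and Gzma (0.341 to 3.70). Klrb1c did not rise (log2 fold change -0.13, with overlap), and Ncr1 had too few counts for the test. Itgax added most to the dendritic cell sum (mean 2.96 to 21.9 CPM). Zbtb46 (log2 fold change -0.073) and Siglech (0.69) overlapped between Lpr and Ctr, and the others did not. Mast cell and basophil markers overlapped between groups, at 0.733 to 3.36, 2.06 to 7.00 and 2.65 to 3.82 CPM. Between DNase and Lpr 6 of 9 T cell markers had a lower fitted level (median -0.197 on the log2 scale), as had 11 of 12 phagocyte markers (median -0.366). Of all genes, 52.9% were lower. Of the 12 phagocyte markers, 2 had an unadjusted p under 0.05, as had 3.43% of all genes in that direction. They were Ccr2 (-0.46, adjusted p = 0.85 from edgeR), the chemokine receptor of inflammatory monocytes, and Plac8 (-1.03, adjusted p = 0.82 from edgeR). Plac8 was highest in Lpr replicate 3 (129.7 CPM), beside 49.95, 78.53 and 35.23 CPM in Lpr replicates 1, 2 and 4. The part of cell numbers in the differences of the members was not tested.

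The 5 B cell markers reported here summed to 1.02 to 6.04 CPM in Ctr, 16.4 to 30.6 CPM in Lpr and 17.0 to 40.2 CPM in DNase. All 5 had a higher fitted level in DNase than in Lpr, the smallest by 0.0677 on the log2 scale. Pax5 and Blk did not overlap, where 2.08% of all genes were higher in DNase with no overlap. Pax5 had 4 to 7 counts per Lpr kidney and passed the filter only through the DNase kidneys. Pax5 and Blk each had an adjusted p of 0.82 from edgeR. Between DNase and Lpr these markers went with Ms4a1 and against the members. Their sum was higher in both MRL/lpr groups than in Ctr, as for the members. The part of B cells was not tested. Markers of kidney tubule summed to 14900 to 15900 CPM in Ctr, 9380 to 13700 CPM in Lpr and 12100 to 15700 CPM in DNase, and those of the glomerulus to 630 to 714, 319 to 615 and 583 to 676 CPM.

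Within the MRL/lpr groups, each member was set against the mean log2 CPM of both marker lists over 8 kidneys, as deviations from the mean of the kidney's own group. Of 14 relations, 7 had an adjusted p under 0.05 by permutation tests (two-sided, Pearson) and 8 by Spearman's rho. The tests used all pairings of the centred values across both groups and did not allow for the centring. Their p-values are therefore approximate and can be too small. Ms4a4b followed the T cell score (r = 0.913, p = 0.0025, adjusted p = 0.0174; rho = 0.905, p = 0.00456, adjusted p = 0.0489, permutation tests). Without Lpr replicates 1 and 2, which lie farthest out, its r was 0.734 (p = 0.0847, permutation test), so the relation rests in part on them. Its r with the phagocyte score was 0.593 (p = 0.12, adjusted p = 0.153; rho = 0.786, p = 0.0279, adjusted p = 0.0489, permutation tests), past the threshold by rho alone, and r was -0.0283 without the 2 farthest kidneys.

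Ms4a6c followed the phagocyte score (r = 0.915, p = 0.00231, adjusted p = 0.0174; rho = 0.810, p = 0.0218, adjusted p = 0.0489, permutation tests). Without Lpr replicate 2 and DNase replicate 3, the farthest out, r was 0.903 (p = 0.0167, permutation test). For Ms4a6d r was 0.905 (p = 0.00496, adjusted p = 0.0174; rho = 0.833, p = 0.0154, permutation tests) and 0.933 without these kidneys. For Ms4a4a r was 0.782 (p = 0.0241, adjusted p = 0.0483; rho = 0.833, p = 0.0154, permutation tests) and 0.929 without them. With the T cell score these 3 had r of 0.634, 0.574 and 0.653, with adjusted p of 0.125, 0.158 and 0.125 by permutation tests. Without Lpr replicates 1 and 2, however, r with the T cell score was 0.933 for Ms4a6c (p = 0.0139, permutation test), 0.850 for Ms4a6d (p = 0.0181, permutation test) and 0.682 for Ms4a4a (p = 0.149, permutation test), so Ms4a6c and Ms4a6d then went with both scores.

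Ms4a6b passed with both scores by Pearson's r and with the T cell score alone by rho. Its r was 0.853 with T cells (p = 0.00682, adjusted p = 0.0191; rho = 0.786, p = 0.0279, adjusted p = 0.0489, permutation tests) and 0.840 with phagocytes (p = 0.0103, adjusted p = 0.0241; rho = 0.762, p = 0.0368, adjusted p = 0.0515, permutation tests). Without the 2 farthest kidneys the first was 0.853 and the second 0.323, so the second rests on them. Ms4a7, a macrophage gene, had r = 0.864 with the T cell score (p = 0.00454, adjusted p = 0.0174; rho = 0.857, p = 0.0107, permutation tests), which was 0.627 without the 2 farthest. With the phagocyte score it had r = 0.763 (p = 0.0301, adjusted p = 0.0527; rho = 0.786, p = 0.0279, adjusted p = 0.0489, permutation tests), so it passed by rho alone. Without the 2 farthest kidneys this r was 0.596 (p = 0.258, permutation test). Ms4a4c had r = 0.320 and 0.549 with the T cell and phagocyte scores (adjusted p = 0.437 and 0.169, permutation tests). Without the 2 farthest kidneys of each score these were 0.914 (p = 0.0125, permutation test) and 0.851 (p = 0.0111, permutation test), so the values over 8 kidneys rest on those kidneys.

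Both scores also went together (r = 0.854, p = 0.00714; rho = 0.929, p = 0.00223, permutation tests), and whether a member follows one more than the other was not tested. The count of 7 relations depended on single kidneys. It was 3 without Lpr replicate 2, 1 without DNase replicate 1, 4 without DNase replicate 3 and 4 without DNase replicate 4, with 7 kidneys in each. Without Lpr replicate 3 it was 8. Ms4a7 then had r = 0.974 with the T cell score and 0.866 with the phagocyte score, and Ms4a6b had 0.954 and 0.938.

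**Figure D4:**
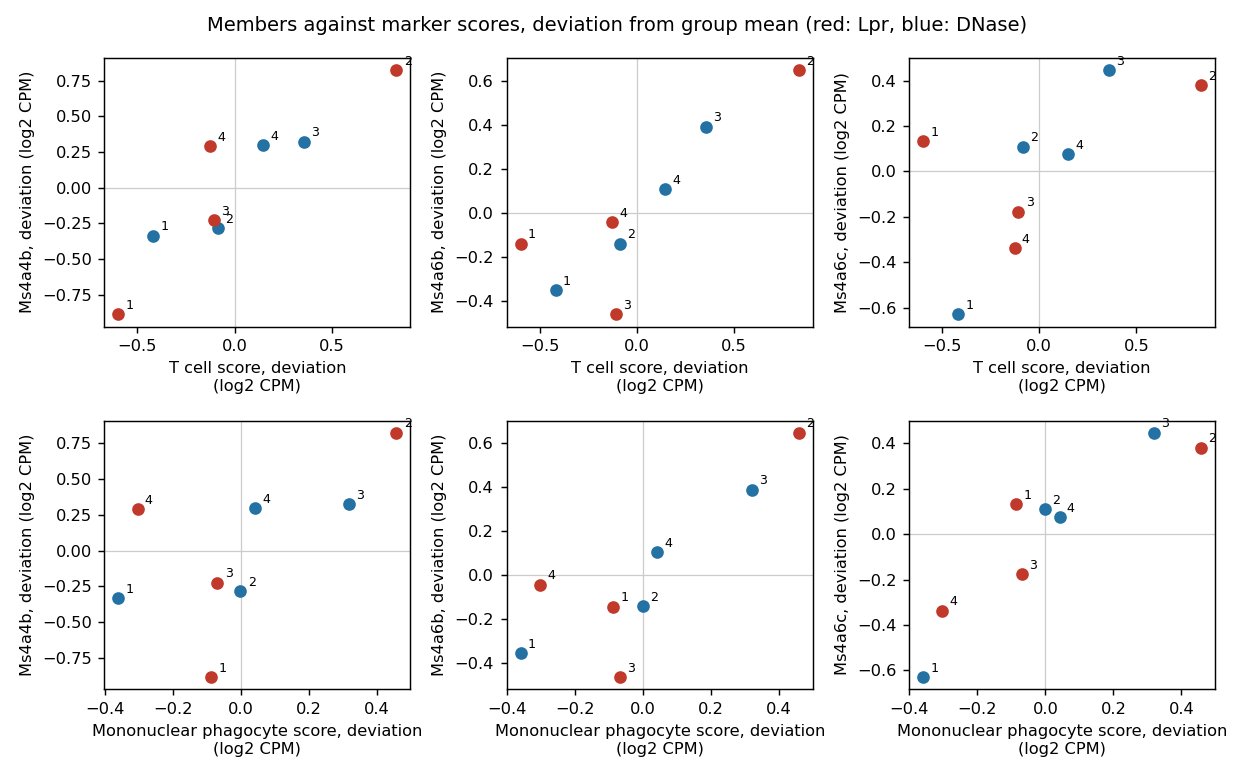
Ms4a4b, Ms4a6b and Ms4a6c against the T cell score (top) and the mononuclear phagocyte score (bottom) in the 8 MRL/lpr kidneys, as deviations in log2 CPM from the group mean, numbered by replicate (red Lpr, blue DNase). Lpr replicate 2 lies at the upper right in all 6 plots, and Ms4a4b and Ms4a6c lie closest to a line with the T cell and the phagocyte score, with r of 0.913 and 0.915.

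The members did not all vary together among these 8 kidneys. As a description on the same centred values, Ms4a6c and Ms4a6d had the highest r (0.946) and the close copies Ms4a4b and Ms4a4c the lowest (0.168). The close copies Ms4a6b and Ms4a6c had r = 0.757. Without Lpr replicate 3 these 3 values were 0.981, 0.232 and 0.783, and that of Ms4a6b and Ms4a7 went from 0.512 to 0.909. These values share libraries and depth. Per length, Ms4a4b was 4.47, 17.3, 6.14 and 12.2 times Ms4a4c in the Lpr kidneys and 22.2, 12.5, 12.4 and 14.5 times in the DNase kidneys. The lowest ratio of the DNase kidneys was above 3 of the 4 Lpr kidneys.

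The genes most like 3 members were sought among 13262 genes by r on the same values, which describe these 8 kidneys and carry no test. For Ms4a4b they were Septin1 (0.99), Cd96 (0.96), an adhesion receptor of T and NK cells, Acap1 (0.956), Nsg2 (0.954) and Tbc1d10a (0.951). For Ms4a6c they were Il2rg (0.984), the common chain of several interleukin receptors, Ppfia4 (0.983), Irf5 (0.974), a transcription factor of interferon and inflammatory responses, Tnfsf8 (0.967) and Nrros (0.961). For Ms4a7 they were Arhgap15 (0.980), Sh3gl1 (0.977), Serpinb6b (0.977), Ccl5 (0.973), a chemokine that draws T cells and monocytes, and Cd44 (0.969), an adhesion receptor. Without Lpr replicate 3, r stayed at 0.955 or above for these 15 genes, but the order did not hold. The 5 named for Ms4a7 then ranked 16 to 38, Cd96, Nsg2 and Tbc1d10a ranked 16, 22 and 33 for Ms4a4b, and Irf5, Tnfsf8 and Nrros ranked 11, 18 and 24 for Ms4a6c. Septin1 and Acap1 ranked 1 and 3, and Il2rg and Ppfia4 ranked 3 and 5.

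A limit of counting concerns Ms4a6c itself. It shares 1088 of its 2050 exon bases (53.1%) with BE692007, and strand use in the counting is not given in the sources used here. BE692007 had 0 to 53 counts per kidney, at most 6.60% of the count of Ms4a6c in the same kidney.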

How the data were processed

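RNA of 11 kidneys (3 Ctr, 4 Lpr, 4 DNase) was analysed. The authors deposited whole-number read counts per gene, without normalization, and FPKM values made from these counts by library total and gene length. The submitters' processing notes name mm10, fastp, HTSeq, DESeq2 and R 3.2.0. How reads that match several genes were counted is not given in the sources used here. The number of unused columns was 0.

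R 4.3.3 with edgeR 4.0.16, limma 3.58.1 and DESeq2 1.42.0 and python 3.11.15 with scipy 1.17.1, biopython 1.88 and matplotlib 3.10.9 were used. Each pair of groups was fitted on its own by edgeR (filterByExpr, TMM, quasi-likelihood test), with Benjamini-Hochberg adjustment over all genes tested. DESeq2, named in the study's methods, was an alternative. Log2 CPM used a prior count of 2. Alternatives were other size factors, no filter, a fit of all 3 groups, the replicate number as a block, limma on log2 FPKM with pseudocounts of 1 and 0.1, and leaving out each kidney in turn.

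By the rule for names, all members were given in every kidney, and any of the listed relatives, partners and markers could be named, beside the 5 genes with the highest r to Ms4a4b, Ms4a6c and Ms4a7 at a mean of at least 1 CPM. Members and lists were chosen with earlier results of these data known. Results that need 1 of the listed genes are left out. Likeness was computed from coding bases of GENCODE transcripts, in place of the planned comparison of proteins. Each library is from 1 mouse. Pairs of kidneys of a group differed by a chi-square per degree of freedom of 17.5 to 85.7, and of 385 to 393 in the pairs with Lpr replicate 3, so differences between libraries and not depth limit abundant genes, and counting error limits Ms4a8a. In simulated data, 200 genes with a mean above 1 CPM were changed by a log2 fold change of 3. The test recovered 199 between Lpr and Ctr, 199 between DNase and Ctr and 200 between DNase and Lpr. Differences as small as those of the members between DNase and Lpr were not simulated.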

Additional observations from a re-analysis of the deposited data

How the results depend on the processing

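The calls of the members against Ctr rested little on the setting. Of 77 alternative counts, 69 stayed within 1.5 times the reported one, and of 322 alternative values of single members, 308 kept their direction and their side of the threshold. With no filter on low counts, 5 members instead of 3 had an unadjusted p under 0.05 between DNase and Lpr. With each kidney left out in turn this number ran from 1 to 4, and the number of relations with marker scores from 1 to 8. The log2 fold change of Ms4a4b between DNase and Lpr ran from -0.55 to 0.00035. The cause was not tested.

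13 values of Ms4a4a and Ms4a4c against Ctr lost their call. Those on log2(FPKM + 1) fell under the threshold of 2 on the fold change, since this scale understates changes of low genes. On it Ms4a4a had 1.27 and Ms4a4c 1.04 for Lpr and 0.87 and 0.59 for DNase. On log2(FPKM + 0.1) Ms4a4c had 1.71 for DNase.

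With the replicate number as a block, 6 members instead of 7 were called between DNase and Ctr, as Ms4a4c fell to 1.99 on the log2 scale with an edgeR adjusted p of 0.0941. 7 were called between Lpr and Ctr and 0 between DNase and Lpr, where 3 had an unadjusted p under 0.05. Between kidneys of the same number, the correlations of deviations ran from -0.277 to 0.158. The labels name no pairing, and with so few kidneys a weak one could be missed.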
